A study of Mus musculus with 6 samples.

Results

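The R-spondin receptors Lgr4, Lgr5 and Lgr6, the R-spondins Rspo1 and Rspo3, and the Wnt pathway and stem cell genes Axin2, Lef1, Notum, Sox9 and Procr were examined in mammary tumours that lack serglycin. All 10 genes were measured, of 22180 genes with 1 symbol in all. They were taken by symbol, and of a gene with several probe sets the brightest by its 6-array mean stands for it. The series compared PyMT+ SG-/- tumours, from mice without serglycin, with PyMT+ SG+/- tumours, from mice with 1 intact copy of the gene. Each group held 3 breast tumours, each with its own number in the labels and read here as coming from different mice. All 6 tumours carried PyMT, a transgene for the middle T antigen of polyoma virus, from which mammary tumours arise. The sources used here do not state the strain, age or tumour stage of the mice or the promoter of the transgene, and there were no mice with 2 intact copies of the serglycin gene. Values are log2 expression from whole-transcript arrays, 1 array per tumour, and the number of arrays limits their precision. Each difference is the SG-/- mean less the SG+/- mean in log2 units, and a negative one means a lower level in SG-/- tumours. The genes were chosen by measured values, since the low Lgr5 values of SG-/- tumours on these arrays were known, and probe sets were selected on their mean level, so the values of the 10 genes are a description.

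Wnt proteins bind Frizzled receptors together with the co-receptors Lrp5 and Lrp6, which stabilises beta-catenin and lets it switch on genes with TCF and LEF factors. The membrane ubiquitin ligases Rnf43 and Znrf3 remove Frizzled from the cell surface. R-spondins bind an LGR receptor and one of these ligases at once, which takes the ligase away and strengthens the Wnt signal. Lgr5 is itself a target of the pathway and marks stem cells of the intestine and the hair follicle. In the mammary gland Lgr5, Lgr6, Procr and Sox9 have each been used to mark progenitor or stem-like cells, and Rspo1 is a secreted signal for basal stem cells.

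The targeted gene Srgn was lower in every SG-/- tumour, at 5.07, 5.04 and 4.89 in SG-/- replicates 1 to 3, against 6.76, 6.43 and 6.35 in SG+/- replicates 1 to 3. The epithelial markers Krt8, Krt18 and Epcam averaged 12.24, 11.97 and 12.11 in SG-/- tumours, against 12.10, 11.88 and 12.20 in SG+/- tumours. Arrays did not group by genotype, with a mean Pearson correlation across probe sets of 0.970 between arrays of 1 genotype and 0.975 between genotypes. The level of 1396 odorant and pheromone receptor genes, assumed silent in mammary tumours, averaged 4.57, 5.13 and 5.86 in SG-/- replicates 1 to 3, against 4.58, 5.62 and 5.49 in SG+/- replicates 1 to 3. The interquartile range over all probe sets also differed between arrays. It was 3.15, 3.07 and 2.56 in SG-/- replicates 1 to 3, against 3.09, 2.92 and 2.85 in SG+/- replicates 1 to 3. Limma called 0 of 22180 genes at an adjusted p of 0.05, which is 0% of those tested, and 469 at an unadjusted p of 0.05. Of these 469 genes 152 were lower and 317 higher in SG-/- tumours, whereas the submitters' series text describes nearly all of its altered genes as lower. The reason for this conflict was not tested.

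Lgr5 was the gene among the 10 whose genotypes lay apart. Lgr5 values were 7.66, 7.03 and 7.15 in SG-/- replicates 1 to 3, against 8.26, 7.87 and 8.33 in SG+/- replicates 1 to 3. Every SG-/- tumour was below every SG+/- tumour, and the gap between the highest SG-/- and the lowest SG+/- tumour was smaller than the range within either genotype. In order from low to high the tumours were SG-/- replicates 2, 3 and 1 and then SG+/- replicates 2, 1 and 3. Lgr5 averaged 7.28 ± 0.33 in SG-/- tumours, against 8.15 ± 0.25 in SG+/- tumours (SD, n = 3 each). Its difference was -0.87 (standard error 0.21, 95% confidence interval -1.37 to -0.37), or 1.83-fold lower in SG-/- tumours. A difference at least this far below 0 was found in 31 of 22180 genes, or 0.14%. Lgr5 was chosen with its low SG-/- values known, so its interval and this share are a description. Adjusted over all genes, the Lgr5 difference was not called (limma adjusted p = 1.00). In tissue samples of this kind, fewer cells that express a gene and less RNA of it per cell cannot be told apart. When single tumours were left out, the difference ran from -1.06 without SG-/- replicate 1 to -0.75 without SG-/- replicate 2, and it was below 0 each time.

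The values of the other 9 genes overlapped between genotypes. Non-overlap in either direction was found in 1 of the 10 genes, against 6.03% of all genes (3.19% for genes lower in SG-/- tumours), and an unadjusted limma p under 0.05 was likewise found in 1 of the 10, against 2.11% of all genes. Since the genes were chosen with earlier results known, nothing is read from these counts. Of the 10 genes, 6 were lower and 4 higher in SG-/- tumours, and 53.7% of all genes were lower. The median difference was -0.034 over the 10 genes and -0.014 over all genes. Without Lgr5, the median size of the difference in either direction was 0.085, and over all genes it was 0.10.

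**Figure D1:**
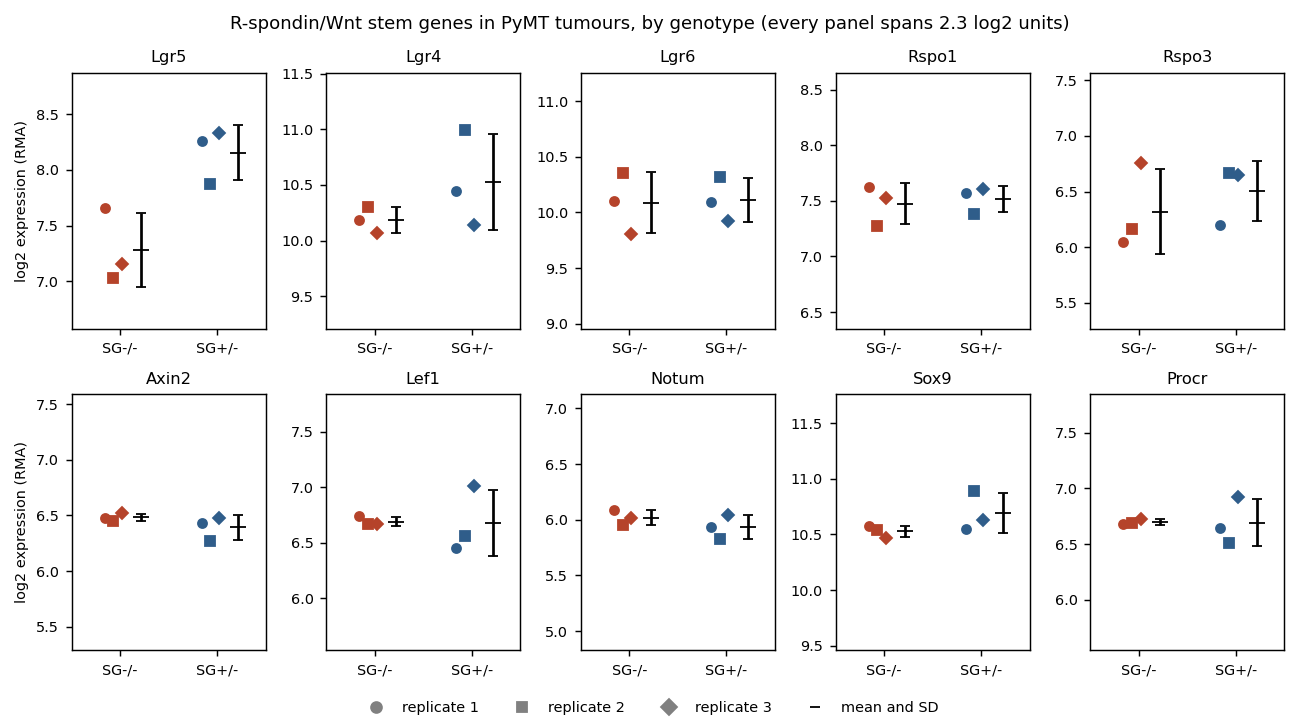
Log2 expression (RMA) of each of the 10 genes in the 3 SG-/- tumours (red, left) and the 3 SG+/- tumours (blue, right), with the mean and SD of each genotype in black and every panel drawn over the same span. The genotypes lie apart for Lgr5 and overlap for the other 9 genes.

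Lgr4, the most widely expressed of the R-spondin receptors, was at 10.18, 10.30 and 10.07 in SG-/- replicates 1 to 3, against 10.44, 10.99 and 10.14 in SG+/- replicates 1 to 3. SG+/- replicate 2 stood above the rest, and the genotypes overlapped. The difference was -0.34 (standard error 0.22) (limma adjusted p = 1.00). Leaving out SG+/- replicate 2 gave -0.11 and leaving out SG+/- replicate 3 gave -0.53. Lgr6, a receptor that marks progenitor cells of the skin and of the mammary gland, was at 10.10, 10.35 and 9.80 in SG-/- replicates 1 to 3, against 10.10, 10.32 and 9.92 in SG+/- replicates 1 to 3. The genotypes overlapped over nearly their whole range, and the difference was -0.026 (standard error 0.18, 95% confidence interval -0.46 to 0.41.) A lower level in SG-/- tumours was thus measured for 1 of the 3 receptors without overlap, and whether the receptors differ from each other in their genotype difference was not tested.

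The R-spondin ligand Rspo1 was at 7.63, 7.27 and 7.53 in SG-/- replicates 1 to 3, against 7.57, 7.38 and 7.60 in SG+/- replicates 1 to 3. The difference was -0.042 (standard error 0.15), and its 95% confidence interval ran from -0.39 to 0.30. Rspo3, an R-spondin made by stromal and endothelial cells, was at 6.05, 6.16 and 6.76 in SG-/- replicates 1 to 3, against 6.196, 6.67 and 6.65 in SG+/- replicates 1 to 3. Its highest and its lowest value both came from SG-/- tumours. The difference of -0.18 had a standard error of 0.23, and leaving out SG-/- replicate 1 gave -0.047 and leaving out SG-/- replicate 3 gave -0.40. Rspo3 moved over the 6 arrays with the mean of the receptor genes taken as silent, with a Pearson r of 0.93, while the same r was -0.25 for Lgr5. With that mean as a covariate the Rspo3 difference was -0.16.

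The R-spondin module comprised 9 genes, namely 4 R-spondins, 3 LGR receptors, Rnf43 and Znrf3. Without Lgr5, which was chosen for its low level, 7 of the other 8 were lower and 1 was higher in SG-/- tumours, where 53.7% of all genes were lower. None passed the adjustment over all genes, and none of the 8 had an unadjusted limma p under 0.05. The mean of the 8 genes was 8.16, 8.19 and 8.14 in SG-/- replicates 1 to 3, against 8.23, 8.32 and 8.25 in SG+/- replicates 1 to 3. The mean of their differences was -0.10 and the median -0.074, against -0.19 and -0.077 with Lgr5 counted in. Without Lgr4 as well, the mean was -0.069 and the median -0.071. Of the 8 genes, only Lgr4 differed by more than its own standard error, so nothing is read from the count of lower genes. The ligase Rnf43 had the lowest difference of the genes outside the 10, at -0.10 (standard error 0.18), and Rspo4 differed by 0.015 (standard error 0.19). Both ligases are also targets of the Wnt pathway, and Znrf3 differed by -0.071.

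**Figure D2:**
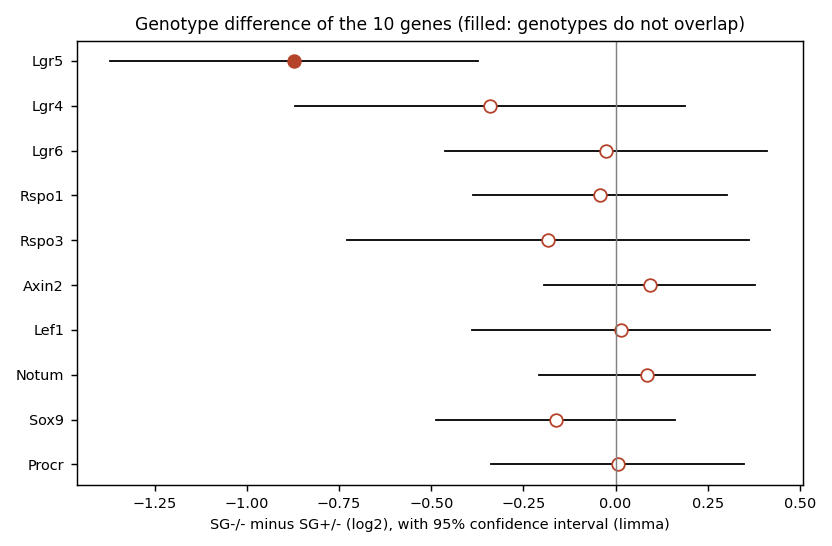
SG-/- minus SG+/- difference (log2) of each gene with its 95% confidence interval from limma, filled where the 3 SG-/- and the 3 SG+/- tumours do not overlap. The interval of Lgr5, from -1.37 to -0.37, lies below 0, and the other 9 intervals contain 0. Lgr5 was chosen with its low SG-/- values known, so its interval is a description.

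Axin2, a scaffold of the beta-catenin destruction complex and the most general target of the pathway, was at 6.48, 6.45 and 6.52 in SG-/- replicates 1 to 3, against 6.43, 6.27 and 6.47 in SG+/- replicates 1 to 3. The difference was 0.092 (standard error 0.12, 95% confidence interval -0.20 to 0.38.) Its sign was opposite to that of Lgr5, but the difference was smaller than its standard error. Axin2 averaged 6.44 over the arrays, and its other probe set, described below, averaged 6.35. Lef1, a DNA-binding partner of beta-catenin that is also a target of the pathway, was at 6.74, 6.67 and 6.67 in SG-/- replicates 1 to 3, against 6.45, 6.56 and 7.01 in SG+/- replicates 1 to 3. All SG-/- values of Lef1 lay inside the SG+/- range, and the difference was 0.014 (standard error 0.17). Notum, a secreted enzyme that inactivates Wnt proteins and a target of the pathway, was at 6.09, 5.95 and 6.01 in SG-/- replicates 1 to 3, against 5.93, 5.83 and 6.04 in SG+/- replicates 1 to 3. The difference was 0.085 (standard error 0.12). The mean of Notum over the arrays was under 6.09, the 40th percentile of probe sets, so that it counts here as a gene of low level.

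Axin2 and Lef1 are the genes most often read as pathway output, and the 250 bases before a RefSeq start of each are shown because the sequence that TCF and LEF factors recognise can be looked for in them. Sequences are from RefSeq on GRCm38.p6, 5′ to 3′ on the strand of the gene. The letters CTTTGA or CTTTGT, searched on both strands, are in capitals. The Lef1 stretch is chr3:131156044-131156293 (plus strand) and belongs to the last of its 4 starts, downstream of the others. Of the 4 Lef1 windows it was the only one with a match, so nothing is read from its contrast with Axin2. The Axin2 stretch is chr11:108920099-108920348 (plus strand).
Lef1: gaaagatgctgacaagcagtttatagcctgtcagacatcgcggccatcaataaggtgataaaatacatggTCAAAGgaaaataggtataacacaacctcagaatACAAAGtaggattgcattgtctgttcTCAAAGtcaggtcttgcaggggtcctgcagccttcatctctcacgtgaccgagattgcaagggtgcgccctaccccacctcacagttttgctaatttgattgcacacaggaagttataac
Axin2: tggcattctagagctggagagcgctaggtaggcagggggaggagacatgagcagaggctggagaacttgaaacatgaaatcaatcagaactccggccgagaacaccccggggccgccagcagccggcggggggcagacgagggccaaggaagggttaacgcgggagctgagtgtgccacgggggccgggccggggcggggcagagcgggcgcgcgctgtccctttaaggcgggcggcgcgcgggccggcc
The Lef1 stretch holds 3 matches and the Axin2 stretch 0. Windows from 250 bases before to 50 after a start were searched for 6 of the 10 genes, namely Lgr4, Lgr6, Rspo1, Axin2, Lef1 and Procr, in 9 windows. Of these, 1 window held a match, the one of Lef1 shown, while 31.2% of all 32851 promoter windows held one. The longer letters CTTTGATC were in 0.938% of all windows. A match is a description of letters, and its absence says nothing of the factors.

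Sox9, a transcription factor of mammary and other epithelial progenitors, was at 10.57, 10.54 and 10.47 in SG-/- replicates 1 to 3, against 10.55, 10.89 and 10.63 in SG+/- replicates 1 to 3. The difference was -0.16 (standard error 0.14), and without SG+/- replicate 2, which was highest for Sox9 as it was for Lgr4, it was -0.062. Procr, the receptor of activated protein C and a surface marker of multipotent mammary stem cells and of endothelium, was at 6.68, 6.69 and 6.73 in SG-/- replicates 1 to 3, against 6.64, 6.51 and 6.93 in SG+/- replicates 1 to 3. The SG-/- values of Procr lay close together and inside the SG+/- range, and the difference was 0.0055 (standard error 0.14). The genotypes overlapped for both stem cell markers.

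The Lgr5 difference rested on 1 of the 2 probe sets that the platform assigns to the gene. The kept probe set is the one described above. The other probe set was at 6.10, 6.30 and 6.16 in SG-/- replicates 1 to 3, against 6.21, 6.16 and 6.19 in SG+/- replicates 1 to 3, a difference of 0.0014 (standard error 0.12). The genotypes overlapped there, and the mean of both probe sets differed by -0.44. Probe sets on this platform are numbered along each chromosome. Of the 20 nearest numbers with a gene of known strand, 20 lay on the minus strand for the kept Lgr5 probe set, and 19 lay on the plus strand for the other. By that order the 2 probe sets read opposite strands, and the tables used here give no strand for Lgr5 itself. Axin2 and Notum showed the same layout. Axin2 is on the plus strand, and of the 20 neighbours 19 were on the plus strand for its kept probe set and 1 for its other one, which differed by -0.011 (standard error 0.21). For Notum the second probe set differed by 0.069 (standard error 0.13), close to the kept one. The second probe set of each gene had the lower mean, by the rule that chose the first.

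**Figure D3:**
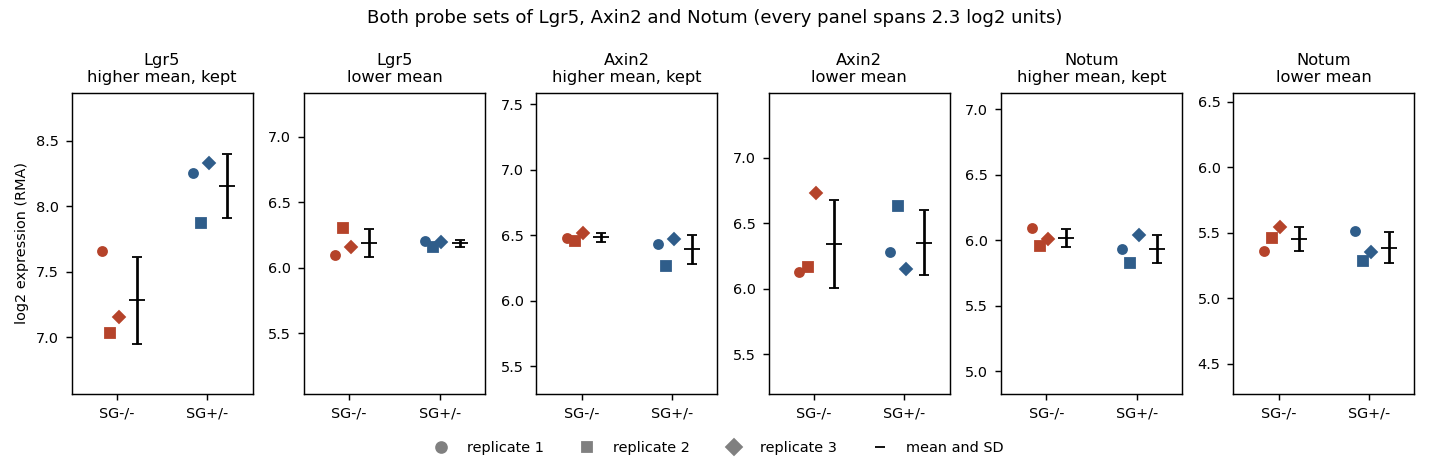
Log2 expression (RMA) of both probe sets of Lgr5, Axin2 and Notum in SG-/- (red, left) and SG+/- (blue, right) tumours, with means and SD in black. The genotypes lie apart in the kept Lgr5 probe set (difference -0.87) and overlap in the other 5.

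Lgr5 shares its chromosome with Srgn and Rspo3 in the RefSeq annotation. Among the 20 measured genes that flank Lgr5, 7 were higher and 13 lower in SG-/- tumours, and the median of their differences was -0.029. The lowest was the receptor phosphatase Ptprr at -0.17 and the highest was Ptprb, the phosphatase of vascular endothelium, at 0.46. The genotypes did not overlap in 1 of these 20 genes, against 6.03% of all genes. The Lgr5 difference was larger in size than that of any of these 20 genes. Lgr5 was chosen with its low level known, and 0.14% of all genes differed at least as far below 0. Nothing is therefore read from this contrast.

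Whether other Wnt targets followed Lgr5 was asked over a list of 24 targets, of which 23 were measured. Without Lgr5, 11 of 22 targets were higher and 11 lower in SG-/- tumours, and their median was -0.015 against -0.014 over all genes. None of the 22 passed the adjustment over all genes, and the genotypes did not overlap in 1. That gene, Tnfrsf19, encodes the receptor TROY, which marks Lgr5-positive stem cells in the mouse intestine. It went the other way from Lgr5, at 9.55, 9.15 and 9.29 in SG-/- replicates 1 to 3, against 8.42, 8.66 and 8.85 in SG+/- replicates 1 to 3. All SG-/- tumours were above all SG+/- tumours, and the difference was 0.69 (standard error 0.17) (limma adjusted p = 1.00). Genes higher in SG-/- tumours without overlap made up 2.84% of all genes. An unadjusted limma p under 0.05 toward higher values, as for Tnfrsf19, was found in 1.43% of all genes, and toward lower values, as for Lgr5, in 0.685%.

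At the other end of the target list was Wif1, a secreted protein that binds Wnts, at 6.92, 9.14 and 7.66 in SG-/- replicates 1 to 3, against 7.08, 10.18 and 8.49 in SG+/- replicates 1 to 3. Single tumours of 1 genotype differed by more than 2 log2 units, and the difference of -0.68 had a standard error of 0.84. Among the targets that act as feedback inhibitors, Nkd1 was 0.15 higher (standard error 0.24), Znrf3 differed by -0.071 (standard error 0.16), and Dkk1 by -0.071 (standard error 0.14). The growth genes Ccnd1 and Myc were 0.13 and 0.14 higher, with standard errors of 0.18 and 0.23. These were named after their values were seen, and none of them differed by more than its own error.

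No correlation of the other 9 genes with Lgr5 from tumour to tumour passed the test, which does not show that they varied apart from it. Over the 6 tumours Pearson's r with Lgr5 ran from -0.27 (Axin2) to 0.56 (Rspo1), with a median of 0.15, against 0.054 over all 22179 other genes. It was above 0 for 6 of the 9, and 54.2% of all genes had an r above 0. Rspo1, the highest, had a Spearman's rho of 0.54 (exact permutation p = 0.233 for r and 0.297 for rho, two-sided). Without the 2 tumours farthest from the median of Lgr5, SG-/- replicates 2 and 3, its r was 0.17. Leaving out replicate 2 alone also gave 0.17, while leaving out replicate 3 alone gave 0.72, so that the pooled relation rested on SG-/- replicate 2. For Sox9 r was 0.38 and rho 0.66 (exact permutation p = 0.515 and 0.175), and r was -0.25 without those 2 tumours. For Axin2 r was -0.27 and rho -0.31 (exact permutation p = 0.696 and 0.564), and r was 0.23 without them. After adjustment over all 22179 genes every p was 1. An exact p under 0.05 was found in 0 of the 9 genes, against 1.53% of all genes, and the smallest p that 6 tumours allow is 0.0028.

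The remaining 6 genes had an r between -0.14 and 0.24. For Lgr4 r was 0.24 and rho 0.14 (exact permutation p = 0.717 and 0.803), and r was -0.22 without the 2 tumours. For Procr r was 0.19 and rho -0.029 (exact permutation p = 0.772 and 1), and r was 0.56 without them. For Lef1 r was 0.15 and rho 0.029 (exact permutation p = 0.797 and 1), and r was 0.20 without them. The sign turned for Lgr4 when the 2 tumours were left out. For Rspo3 r was 0.084 and rho 0.14 (exact permutation p = 0.825 and 0.803), and r was 0.40 without them. With the mean of the receptor genes assumed silent taken out of both genes, r for Rspo3 was 0.88, a value read with no test. For Notum r was -0.070 and rho -0.029 (exact permutation p = 0.89 and 1), and r was -0.083 without them. For Lgr6 r was -0.14 and rho -0.37 (exact permutation p = 0.757 and 0.497), and r was -0.58 without them. Among the 19 targets outside the 10 genes r was above 0 in 9 and below 0 in 10, from -0.66 for Tnfrsf19 to 0.51 for Sp5, a transcription factor induced by Wnt.

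Since Lgr5 differed between genotypes, r was also taken over values centred on their own genotype, which leaves the spread among tumours of 1 kind. Notum (0.89), Rspo1 (0.89) and Axin2 (0.58) then had an r above 0, as did Procr (0.44) and Lef1 (0.39). Lgr4 (-0.60), Rspo3 (-0.44), Lgr6 (-0.41) and Sox9 (-0.39) had one below 0. The sign was thus turned for 5 of the 9 genes against the pooled values. With 3 tumours in a genotype these are descriptions and carry no test. The Wnt targets Axin2 and Notum lay on the side of Lgr5 within genotypes and on the other side between them, with differences of 0.092 and 0.085 that were smaller than their standard errors.

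**Figure D4:**
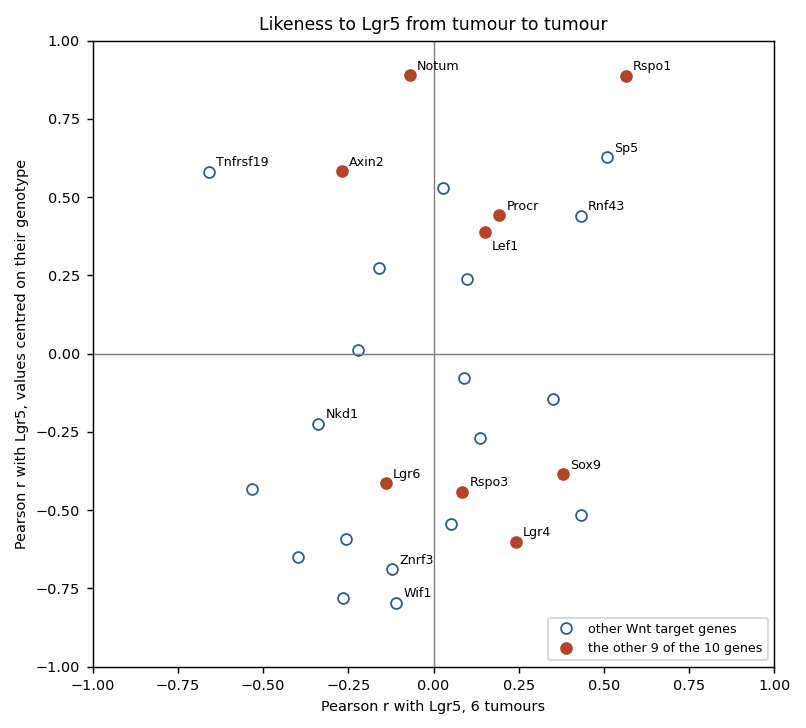
Pearson r with Lgr5 over the 6 tumours (horizontal) against the same r after each value was centred on its genotype (vertical), for the other 9 of the 10 genes (red) and 19 other Wnt targets (open). Points lie on both sides of 0 on each axis, and Tnfrsf19 has the lowest pooled r, -0.66.

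Genes with a pattern over the 6 tumours like that of Lgr5 were taken as those with the highest Pearson r among 601 genes above the 40th percentile of level with an SD of at least 0.5, so that their r is a description. Hal, the enzyme that turns histidine into urocanate, came first with an r of 0.88 and a rho of 0.94. Hal was at 6.37, 6.05 and 6.68 in SG-/- replicates 1 to 3, against 7.67, 6.81 and 7.73 in SG+/- replicates 1 to 3, and the genotypes did not overlap. Its r was 1.00 over the 4 tumours left without SG-/- replicates 2 and 3. Next came the phospholipid enzyme Gdpd3 (r = 0.83), the dual oxidase maturation factor Duoxa1 (r = 0.82), the placental growth factor Pgf (r = 0.82) and the hydrogen peroxide-producing oxidase Duox1 (r = 0.80). Without the 2 tumours their r was 0.50, 0.94, 0.86 and 0.91 in that order. All 5 were lower on average in SG-/- tumours, by -0.83 (Gdpd3), -1.43 (Duoxa1), -0.67 (Pgf), -1.12 (Duox1) and -1.04 (Hal). They were chosen for likeness to Lgr5, which was itself lower there, so nothing is read from this shared direction. Outside these limits, 3 Wnt genes named after their values were seen had an r as high. The co-receptor Lrp6 had an r of 0.93 and a rho of 0.89, the receptor Fzd9 an r of 0.86 and a rho of 0.89, and the ligand Wnt1 an r of 0.84 and a rho of 0.94. Without SG-/- replicates 2 and 3 their r was 0.79, 0.72 and 0.81, and within genotypes it was 0.66, 0.40 and 0.59. Their SD over the tumours was under 0.5, and Wnt1 also lay under the low-level line. An exact permutation p under 0.05 was found in 1 of 19 Wnt ligands and 2 of 16 Wnt receptors, against 1.53% of all genes. The other pathway lists held none. All 3 genes were lower in SG-/- tumours without overlap, as Lgr5 was, so nothing is read from their pooled r. Adjusted over all 22179 genes, the exact permutation p of each was 1.

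The rest of the pathway was read from lists of its parts. Of 19 Wnt ligands, 15 were higher and 4 lower in SG-/- tumours, with a median of 0.063. Wnt2, under the low-level line, was the highest at 0.25 (standard error 0.14), and Wnt5a, which signals mainly without beta-catenin, was the lowest at -0.28 (standard error 0.37). Of these ligands 7 lay under the low-level line. None passed the adjustment, and the genotypes did not overlap in 1, Wnt1, named after its values were seen, at -0.12 (standard error 0.12). Non-overlap toward lower values was found in 3.19% of all genes.

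Of 16 Wnt receptors and co-receptors, 7 were higher and 9 lower, with a median of -0.057, and none passed the adjustment. The genotypes did not overlap in 2, both lower in SG-/- tumours, where 3.19% of all genes do the same. The Frizzled receptor Fzd9 was at 7.12, 7.05 and 6.93 in SG-/- replicates 1 to 3, against 7.30, 7.44 and 7.67 in SG+/- replicates 1 to 3, a difference of -0.44 (standard error 0.14). The other was the co-receptor Lrp6, named after its values were seen, with a difference of -0.26 and a standard error of 0.12. Fzd4, a Frizzled of endothelium that also binds norrin, was the highest at 0.31 (standard error 0.22).

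Of 12 measured secreted inhibitors, 9 were higher and 3 lower in SG-/- tumours, and the median was 0.19. None passed the adjustment. Sfrp2, a secreted Frizzled-related protein of fibroblasts, was the highest, at 9.28, 7.62 and 7.28 in SG-/- replicates 1 to 3, against 7.55, 7.64 and 7.26 in SG+/- replicates 1 to 3. SG-/- replicate 1 alone stood above the SG+/- tumours, and the difference of 0.58 had a standard error of 0.49. The genotypes did not overlap in 1 inhibitor, Dkk2, named after its values were seen, which was 0.26 higher (standard error 0.15). Non-overlap toward higher values was found in 2.84% of all genes.

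Of 19 measured genes of the destruction complex and of the nuclear step, 7 were higher and 12 lower, with a median of -0.058, and none passed the adjustment. Their mean was 9.10, 9.10 and 8.80 in SG-/- replicates 1 to 3, against 9.10, 9.12 and 9.08 in SG+/- replicates 1 to 3. SG-/- replicate 3 thus stood apart from the rest. The genotypes did not overlap in 4, all lower in SG-/- tumours, against 3.19% of all genes. They were the corepressor Tle1 (-0.44, standard error 0.16), the scaffold Axin1 (-0.24, standard error 0.14), the adaptor Dvl2 (-0.25, standard error 0.14) and the kinase Gsk3b (-0.12, standard error 0.12), the last 3 named after their values were seen. Beta-catenin itself, Ctnnb1, differed by -0.20 (standard error 0.15). Pygo1, a nuclear co-activator of beta-catenin, was the highest at 0.30 (standard error 0.23).

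Of 24 stem cell genes, 11 were higher and 13 lower, with a median of -0.037, and none passed the adjustment. Apart from Lgr5, the lowest was Foxc1, a forkhead factor of basal-like breast cells, at -0.44 (standard error 0.23). The highest was Dll1, a Notch ligand of mammary stem cells, at 0.41 (standard error 0.36). Olfm4 and Ascl2, which mark Lgr5-positive stem cells in the intestine, were both under the low-level line. The genotypes did not overlap in 2 of the 24, Lgr5 (lower) and the RNA-binding protein Msi1 (0.23 higher, standard error 0.13). Msi1 was named after its values were seen, and Lgr5 was chosen for its low level. Non-overlap in either direction was found in 6.03% of all genes, so nothing is read from this count.

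**Figure D5:**
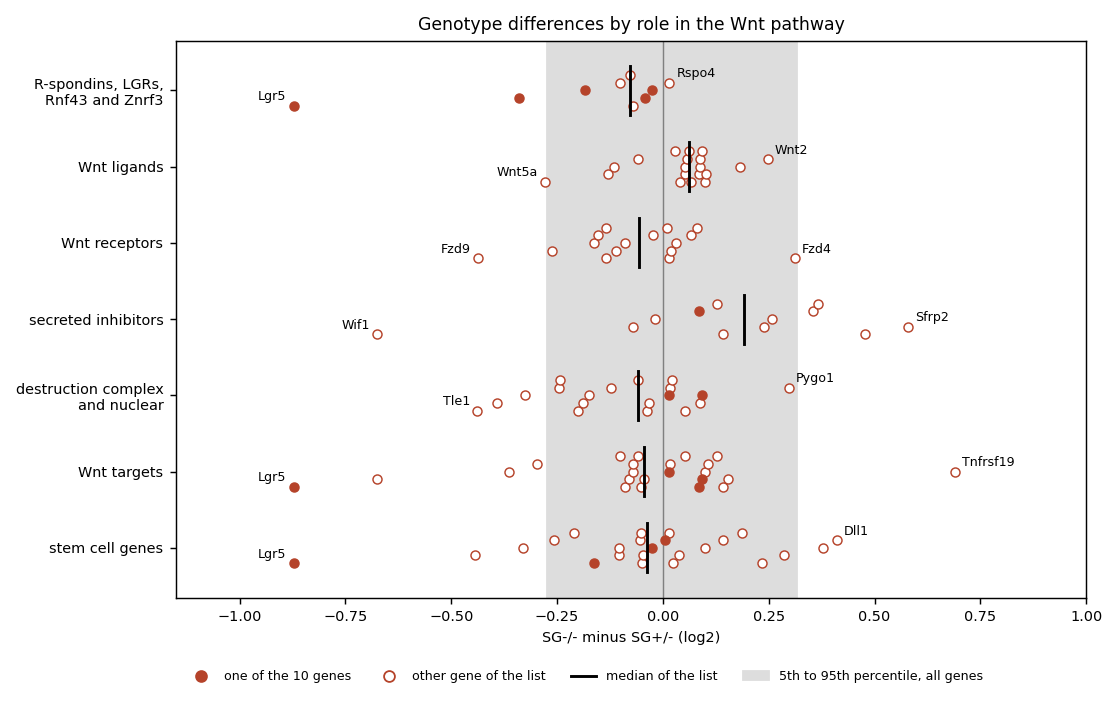
SG-/- minus SG+/- differences (log2) of the genes of each role list, with the median of the list as a black bar and the 5th to 95th percentile of all genes (-0.27 to 0.32) in grey. Lgr5 at -0.87 and Tnfrsf19 at 0.69 lie farthest out, and the medians of the lists lie between -0.077 and 0.19.

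Markers of the cell types that such a tumour can hold also differed between groups. All 10 fibroblast markers, all 10 endothelial markers, all 10 macrophage markers and all 9 measured T cell markers were higher in SG-/- tumours, with median differences of 0.55, 0.38, 0.36 and 0.30, and none passed the adjustment. The genotypes did not overlap in 3, 5, 3 and 5 of these markers in that order. Non-overlap toward higher values was found in 2.84% of all genes. The lists were chosen with earlier results known, so these counts are a description. The mean of the fibroblast list was between 9.25 and 10.27 in SG-/- tumours and between 8.89 and 9.27 in SG+/- tumours, with Col1a1 at 0.38 and Col1a2 at 0.51. For endothelium it was between 7.87 and 8.31 in SG-/- tumours and between 7.60 and 7.85 in SG+/- tumours, with Cdh5 at 0.51 and Pecam1 at 0.35. For macrophages the mean was between 8.39 and 9.27 in SG-/- tumours and between 8.32 and 8.42 in SG+/- tumours, with Adgre1 at 0.53 and Csf1r at 0.39. For T cells, which also express Lef1, it was between 6.37 and 6.62 in SG-/- tumours and between 6.11 and 6.23 in SG+/- tumours, with Cd3e at 0.44 and Cd3d at 0.30.

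Between genotypes, Lgr5 was lower where these 4 lists were higher. Among the SG-/- tumours, replicate 1 had the highest mean of each of the 4 lists and also the highest Lgr5. Among the SG+/- tumours, replicate 3 had the highest Lgr5. Its means were the lowest for fibroblasts (8.89) and macrophages (8.32), the highest for endothelium (7.85) and in between for T cells (6.19). The part of these lists in the Lgr5 difference was not tested. Of 10 luminal markers 8 were higher and 2 lower, with the mean between 10.55 and 10.93 in SG-/- tumours and between 10.50 and 10.70 in SG+/- tumours. Of 9 measured basal and myoepithelial markers 7 were higher and 2 lower, and Krt14 differed by 0.11. Their mean was between 7.83 and 9.04 in SG-/- tumours and between 7.83 and 8.62 in SG+/- tumours. Single differences ran from -0.63 to 0.76. The genotypes did not overlap in 1 marker, which was lower in SG-/- tumours, where 3.19% of all genes do the same. Hair follicle and skin, where Lgr5 and Lgr6 mark stem cells, were represented by 12 markers, of which 8 lay under the low-level line. Their mean was between 5.73 and 6.01 in SG-/- tumours and between 5.71 and 5.78 in SG+/- tumours, with Krt71 at -0.11 and Krt25 at 0.092. Of these 12 markers 9 were higher and 3 lower, and single differences ran from -0.11 to 0.36. The hair keratins Krt33a and Krt34, named after their values were seen, lay above the low-level line, with differences of 0.0026 and 0.0069. Krt10 and Lor, named in the same way, also lay above it, with differences of 0.076 and -0.075.

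Of 12 salivary gland markers 8 were higher, with the mean between 7.78 and 9.73 in SG-/- tumours and between 7.77 and 8.48 in SG+/- tumours. Bpifa2 was at 13.54, 7.26 and 13.64 in SG-/- replicates 1 to 3, against 6.18, 5.98 and 6.47 in SG+/- replicates 1 to 3, and Dcpp1 differed by 0.42. Dcpp2 and Aqp5 of the same list, named after their values were seen, went the other way without overlap, at -2.54 and -0.21. Of 9 measured adipocyte markers 8 were higher, with the mean between 6.87 and 7.37 in SG-/- tumours and between 6.50 and 7.09 in SG+/- tumours, with Adipoq at 0.21 and Fabp4 at 0.99. Of 9 measured proliferation genes 8 were lower, with Mki67 at 0.028 and Top2a at -0.25. Their mean was 9.74, 9.72 and 9.28 in SG-/- replicates 1 to 3, against 9.64, 9.82 and 9.63 in SG+/- replicates 1 to 3. SG-/- replicate 3 alone lay below the SG+/- tumours. Its array also had the narrowest interquartile range. The part of any of these lists in the values of the 10 genes was not tested.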

How the data were processed

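Gene expression was measured in 6 mammary tumours, 3 SG-/- and 3 SG+/-, on Affymetrix whole-transcript arrays. Tissue was snap-frozen and RNA was extracted with Trizol, per the labels' protocols. The unit is log2, as deposited: 1 value for each probe set and array. Per the submitters' processing notes, the tools were RMA, Affymetrix Expression Console and limma, with no version given. There were 33793 probe sets with 0 missing values, of which 23521 had 1 symbol in the platform annotation, 1814 several and 8458 none there. The probe set with the highest mean was kept for the 1082 genes with several, which left 22180 genes. No column of values was left out.

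The main test was limma 3.58.1 (R 4.3.3; lmFit, then eBayes), two-sided. P-values were adjusted by Benjamini-Hochberg across the 22180 genes and called at 0.05. They measure the spread between tumours, which were read as separate mice from their separate numbers in the labels. Likeness to Lgr5 was taken as Pearson's r and Spearman's rho with exact permutation p-values, adjusted over all genes. The fit was tested on simulated data. Figures used matplotlib 3.10.9 (Python 3.11.15). Of 230 list entries 222 were measured. The members, lists, alternatives and tests were chosen with earlier results of these data known. The text names Srgn, the 10 genes, the highest and lowest gene of each pathway list outside the 10, the first 2 genes of each cell type list, Krt8, Krt18, Epcam and the 5 genes most like Lgr5, and says where others were chosen after their values were seen. The alternatives left out genes of low level, applied quantile normalization again, centred arrays on brighter genes, used eBayes with trend and robust settings, array weights, the mean of a gene's probe sets, the receptor mean as a covariate, or left out each tumour. The use of the other probe set was added after the data were seen.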

Additional observations from a re-analysis of the deposited data

How the results depend on the processing

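With each alternative, limma called 0 of the 10 genes, and Lgr5 was lower in SG-/- tumours in all 13 that kept its probe set or averaged its probe sets, from -1.08 with array weights to -0.44 with the mean of its probe sets (limma adjusted p from 0.173 to 1.00). Array weights in SG-/- tumours were 4.95 for replicate 2, the lowest in Lgr5, against 0.96 and 0.20 for replicates 1 and 3. The SG-/- mean in that fit thus came mostly from 1 tumour. The other probe set, an alternative added after seeing the data, gave 0.0014 for Lgr5 and -0.011 for Axin2. The count of genes called was 1 with the receptor mean as a covariate (Srgn) and 1 without SG-/- replicate 2 (Bpifa2), and 0 otherwise, so that leaving out single tumours gave 0 to 1. The count at an unadjusted p of 0.05 was 1200 without SG-/- replicate 3, 2569 with array weights and 1038 in the covariate fit, against 469. Genes whose genotypes did not overlap numbered 1546 after quantile normalization and 1645 after centring, and 1 of the 10 genes in both. The median difference of the Wnt targets without Lgr5 moved by less than the spread between tumours. Signs turned for genes near 0. Lef1 was -0.042 and Procr -0.041 after quantile normalization, Lgr6 was 0.014 after centring, and Lgr6 was 0.25, Lef1 -0.12 and Procr -0.088 with array weights. Leaving out single tumours gave -0.097 to 0.18 for Lef1, -0.086 to 0.12 for Procr, -0.16 to 0.12 for Lgr6 and -0.12 to 0.059 for Rspo1. The cause was not tested.

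Of the correlations with Lgr5, Axin2 was 0.070 and Notum 0.18 after quantile normalization. Within genotypes Lgr4 was -0.60, Rspo3 -0.44, Axin2 0.58, Notum 0.89 and Sox9 -0.39. With the receptor mean taken out, Rspo3 was 0.88, against 0.084. Without the 2 tumours farthest in Lgr5, Lgr4 was -0.22, Axin2 0.23 and Sox9 -0.25. Leaving out single tumours gave -0.76 to 0.34 for Lgr6, -0.22 to 0.49 for Rspo3, -0.33 to 0.067 for Notum, -0.73 to 0.62 for Lef1 and -0.59 to 0.39 for Procr. No paired analysis was possible because the labels give each tumour its own number and pair none. The 3 arrays per genotype limit the precision. Notum was left out where genes of low level were removed.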
